A study of Mus musculus with 12 samples.

Results

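The genes described here are 10 components of transforming growth factor beta (TGF-β) signalling and its close cytokine Il10, measured in microglia (MG), macrophages (MP) and related myeloid cells. They are Tgfb1, Tgfb2, Il10, Tgfbr1, Tgfbr2, Smad3, Smad7, Ski, Skil and Tgif1, 10 of 19938 genes on the array. A gene entered through a probe set annotated with its symbol alone, and each of the 10 had 1 such probe set. Their values were read on 12 Affymetrix Mouse Gene ST arrays, each of 1 sorted cell population. There were no replicates of a population.

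All mice were C57BL/6 and 7 weeks old at implantation. GL261, a mouse glioma line, was placed in the brain and grew for 2 weeks before the mice were killed. The labels give 8 arrays the disease state tumor and 4 the disease state normal, but all 12 carry the same implantation protocol, so the handling of the normal mice is not separately described. Brain gave 6 arrays, namely MG and MP of normal brain, MG and MP of tumor brain, and Gr1+ and Gr1- cells of tumor brain. Blood gave 6 arrays, namely populations named macrophage high and macrophage low from normal and from tumor-bearing mice, and Gr1+ and Gr1- cells of tumor-bearing mice. Brain MG were gated as CD11b+ CD45 low cells and MP as CD11b+ CD45 high cells. How many mice were pooled per array is not given in the sources used here.

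TGF-β ligands are secreted in a latent form and, once released, bind the type 2 receptor Tgfbr2, which recruits and phosphorylates the type 1 receptor Tgfbr1. The activated receptor phosphorylates Smad2 and Smad3, which enter the nucleus with Smad4. Smad7, itself a target of the pathway, inhibits the receptor, and Ski, Skil and Tgif1 are corepressors that hold SMAD complexes in check. In the brain this pathway is known for maintaining the microglial gene program, and in tumors TGF-β and IL-10 are known as immunosuppressive cytokines.

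A value on an array was called above background when it exceeded the 95th percentile of 1027 olfactory receptor genes, which these cells are not known to use. This level ran from 8.93 to 10.09 on the log2 scale. It was highest on the normal blood macrophage high array, where 11.2% of genes lay above it, against a median of 32.1% over the 12 arrays. As a yardstick of noise between 2 arrays, the spread (SD) of log2 differences over the olfactory receptor genes of those arrays was used, called the olfactory receptor SD. It is not a replicate error. The share of all genes beyond it was not counted, so exceeding it does not by itself set a member apart from other genes.

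Several arrays went against their labels or held other cells. The array labelled tumor blood Gr1- had 9 of 9 microglia markers above background, with a median log2 value of 12.10, and correlated at r = 0.962 with tumor MP over all genes. Tumor blood Gr1+ also held brain cell transcripts, with the oligodendrocyte genes Mbp at 11.16 and Mobp at 10.53 and the astrocyte gene Slc1a2 at 11.35. On tumor brain Gr1+ these were at 9.41, 8.66 and 9.70. The other oligodendrocyte and astrocyte markers were below background on tumor blood Gr1+. Of 8 markers of natural killer (NK) cells, 7 lay above background on normal blood macrophage high and 8 on tumor blood macrophage low, with 0 of 10 neutrophil markers above it on either. The other macrophage arrays, normal low and tumor high, had 8 of 10 neutrophil markers and 0 NK cell markers above background, so by these markers the names high and low were crossed between normal and tumor-bearing mice. All 4 also had 6 or 7 of 7 B cell markers above background. Normal MP had 10 of 10 neutrophil markers and 6 of 6 markers of macrophages at the brain borders above background. Tumor MP was not told apart from tumor MG by microglia markers, of which 0 of 9 differed by 2-fold. Itgam, which encodes the sorted antigen CD11b, was above background on every array but normal blood macrophage high. Ly6g, which encodes a Gr1 antigen, was below background on both Gr1+ arrays, at 7.00 in tumor brain and 8.52 in blood. On normal MP it was at 10.76. Ly6c1 and Ly6c2, also listed as sort antigens, had no probe set annotated with their symbol alone. In such bulk arrays, fewer cells of a type and less RNA per cell cannot be told apart.

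The members fell into those above background on nearly every array and those above it on none. Tgfb1 was above background on 12 arrays, Tgfbr2, Smad3, Ski, Skil and Tgif1 on 11, and Tgfbr1 and Smad7 on 10, while Tgfb2 and Il10 were above it on 0. Of all genes, 7.67% were above background on all 12 arrays and 48.0% on none. The normal blood macrophage high array had 1 member above background, Tgfb1, which exceeded it by 0.00 on the log2 scale, so values on this array carry little weight for the other 9. Among 8232 genes above background on at least 3 arrays the median range over the 12 arrays was 1.49 on the log2 scale. Tgfbr1 spanned 5.34, or 3.71 with values below background raised to it, the widest of the 8 expressed members on both scales, and Smad3 spanned 1.79.

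**Figure D1:**
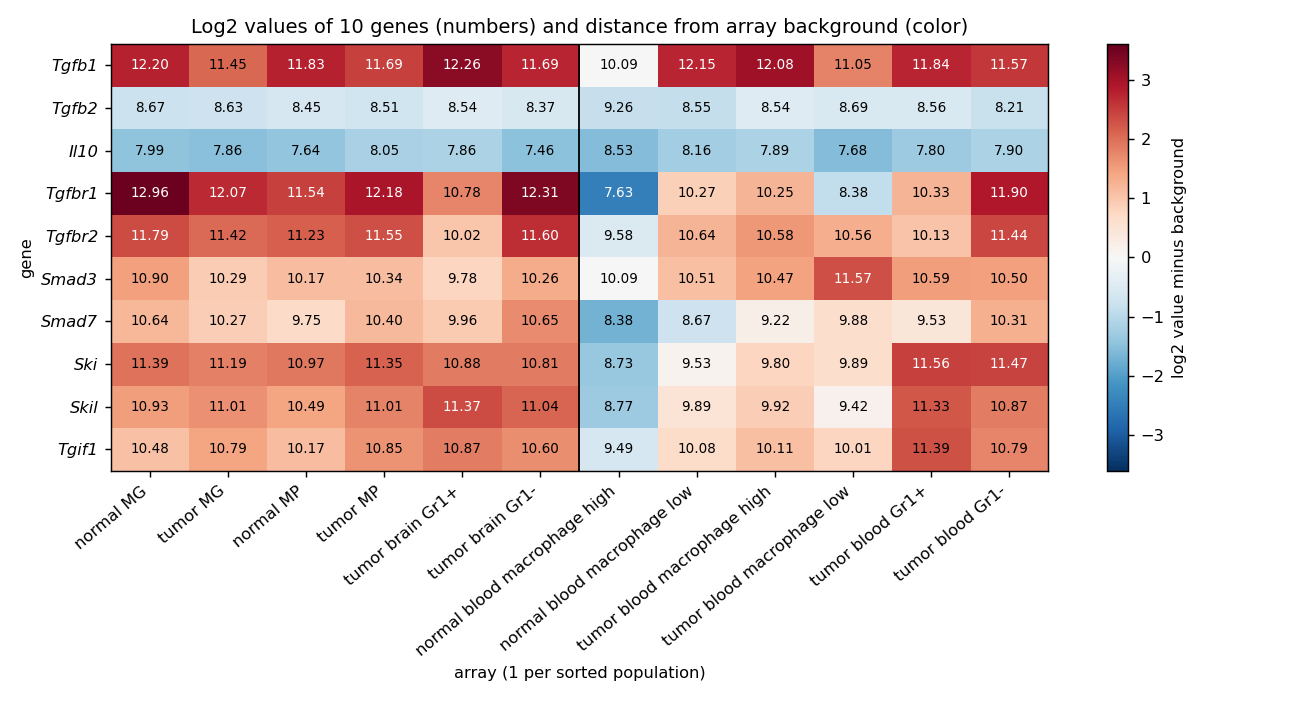
Log2 values of the 10 genes (rows, numbers in cells) on 12 arrays (columns, brain left of the line), with color showing the log2 distance from each array's background. Tgfb2 and Il10 lay below background on all arrays, and Tgfbr1 ran from 7.63 on normal blood macrophage high to 12.96 on normal MG.

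Among the ligands, Tgfb1 was the isoform above background. In brain its log2 value was 12.20 on normal MG, 11.45 on tumor MG, 11.83 on normal MP, 11.69 on tumor MP, 12.26 on Gr1+ and 11.69 on Gr1- cells. In blood it was 10.09 on normal macrophage high, 12.15 on normal macrophage low, 12.08 on tumor macrophage high, 11.05 on tumor macrophage low, 11.84 on Gr1+ and 11.57 on Gr1- cells. All arrays but normal blood macrophage high and tumor blood macrophage low, the 2 with most NK cell markers, thus lay between 11.45 and 12.26. In the order of levels, 2 of 11 gaps between neighbouring arrays exceeded the olfactory receptor SD of the same 2 arrays.

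Tgfb2, another isoform of the ligand, lay between 8.21 on tumor blood Gr1- and 9.26 on normal blood macrophage high, the array with the highest background. Relative to each array's background it lay from -0.86 to -0.47 on the log2 scale. Il10, which encodes an immunosuppressive cytokine that acts through its own receptor and STAT3, lay between 7.46 on tumor brain Gr1- and 8.53 on normal blood macrophage high. Il10 was nearest to background at -1.13 and farthest from it at -1.57 on the log2 scale. On these arrays neither transcript was detectable over background, which does not show its absence.

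Tgfbr1, the signalling type 1 receptor, was the member that varied most. In brain its log2 value was 12.96 on normal MG, 12.07 on tumor MG, 11.54 on normal MP, 12.18 on tumor MP, 10.78 on Gr1+ and 12.31 on Gr1- cells. In blood it was 7.63 on normal macrophage high, 10.27 on normal macrophage low, 10.25 on tumor macrophage high, 8.38 on tumor macrophage low, 10.33 on Gr1+ and 11.90 on the array labelled Gr1-. Normal MG were the highest and both arrays with most NK cell markers were the lowest, below background. In the order of levels, normal MG exceeded the next array, tumor brain Gr1-, by 0.66 against an olfactory receptor SD of 0.48. The arrays from tumor brain Gr1- down to normal MP, which include tumor MP, tumor MG and tumor blood Gr1-, were not separated from their neighbours by more than that SD. Normal MP exceeded tumor brain Gr1+ by 0.76 against 0.46, and tumor blood macrophage high exceeded tumor blood macrophage low by 1.88 against 0.54.

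Tgfbr2, the ligand-binding type 2 receptor, followed a similar order over a narrower span. In brain its log2 value was 11.79 on normal MG, 11.42 on tumor MG, 11.23 on normal MP, 11.55 on tumor MP, 10.02 on Gr1+ and 11.60 on Gr1- cells. In blood it was 9.58 on normal macrophage high, 10.64 on normal macrophage low, 10.58 on tumor macrophage high, 10.56 on tumor macrophage low, 10.13 on Gr1+ and 11.44 on Gr1- cells. The arrays split into an upper set, formed by all brain arrays but Gr1+ together with tumor blood Gr1-, and a lower set of the others. The gap between these sets, from normal MP to normal blood macrophage low, was 0.60 against an olfactory receptor SD of 0.39 and was the one gap of 11 beyond it. Over the 12 arrays, which share their processing and differ in cell makeup, Tgfbr1 and Tgfbr2 correlated at r = 0.86, at 0.79 without normal blood macrophage high and at 0.93 over the 6 brain arrays.

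**Figure D2:**
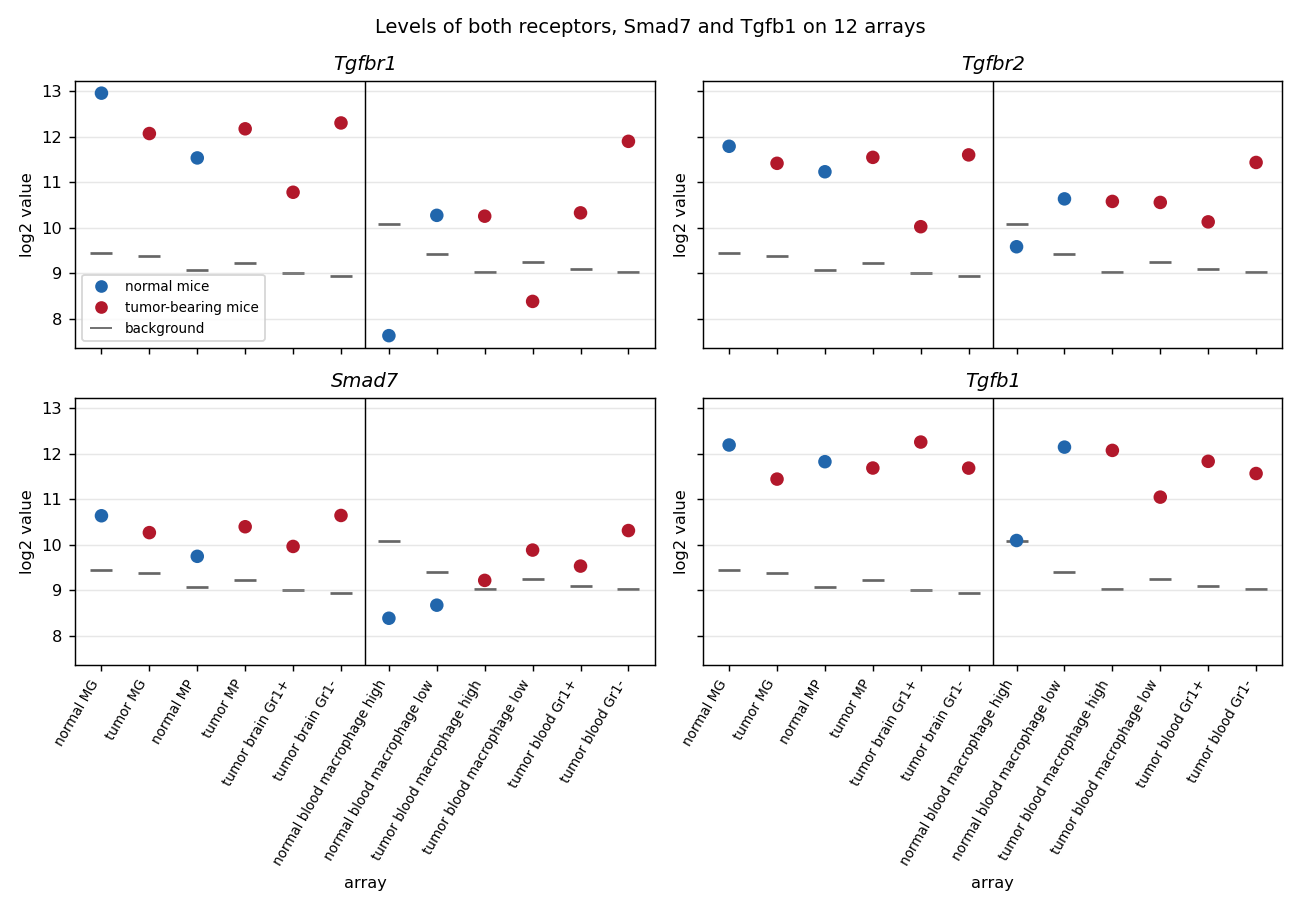
Log2 values (y axis) of Tgfbr1, Tgfbr2, Smad7 and Tgfb1 on each of 12 arrays (x axis), with blue points for normal mice, red points for tumor-bearing mice and grey dashes for each array's background. Tgfbr1 was at 12.96 on normal MG and at 10.78 on tumor brain Gr1+, while Tgfb1 was at 12.20 and 12.26 on the same arrays.

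Since the levels of both receptors moved together, the bases before their RefSeq gene starts are shown. They are 250 bases of GRCm38.p6 on the gene's strand, 5′ to 3′, and capitals mark CAGAC, a core sequence that SMAD proteins bind, on either strand (CAGAC or GTCTG). The second Tgfbr1 entry is another annotated start of the same gene.
Tgfbr1, chr4:47352972-47353221, plus strand: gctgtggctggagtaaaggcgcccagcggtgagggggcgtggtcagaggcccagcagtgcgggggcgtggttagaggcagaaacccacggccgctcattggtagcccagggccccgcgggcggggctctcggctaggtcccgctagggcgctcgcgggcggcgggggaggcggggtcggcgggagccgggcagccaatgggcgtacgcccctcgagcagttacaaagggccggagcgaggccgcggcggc
Tgfbr1, second start, chr4:47385966-47386215, plus strand: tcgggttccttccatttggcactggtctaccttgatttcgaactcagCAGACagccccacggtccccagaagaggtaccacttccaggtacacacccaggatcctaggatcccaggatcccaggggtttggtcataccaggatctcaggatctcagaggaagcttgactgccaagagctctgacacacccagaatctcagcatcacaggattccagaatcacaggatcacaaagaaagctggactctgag
Tgfbr2, chr9:116175364-116175613, minus strand: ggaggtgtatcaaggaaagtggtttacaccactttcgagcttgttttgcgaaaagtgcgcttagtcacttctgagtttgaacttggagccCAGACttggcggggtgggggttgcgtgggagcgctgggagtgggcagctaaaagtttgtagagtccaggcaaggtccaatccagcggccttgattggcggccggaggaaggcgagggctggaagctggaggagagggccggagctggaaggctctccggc
The first Tgfbr1 sequence had 0 CAGAC matches and a GC content of 74.8%, against a median of 52.4% over all promoters. The second Tgfbr1 start had 1 match beginning at position -203 relative to the gene start, and Tgfbr2 had 1 beginning at -160. CAGAC was present on either strand in 42.2% of 32851 promoters of this length. The palindrome GTCTAGAC, which is GTCT followed by its reverse complement AGAC, was present in 0.167% of them and in none of the member promoters read. It contains neither CAGAC nor GTCTG, so its count is not one of paired CAGAC matches. A match is a description of letters and not a binding site. Of the 10 members, entries of 7 were read, with entries on 1 chromosome left out beforehand, and Smad7, Skil and Il10 are named only.

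Among the SMADs, Smad3, the transcription factor that carries the signal, and Smad7, the inhibitory member, differed in where they were high. Smad3 had log2 values of 10.90 on normal MG, 10.29 on tumor MG, 10.17 on normal MP, 10.34 on tumor MP, 9.78 on tumor brain Gr1+ and 10.26 on tumor brain Gr1-. In blood it lay between 10.09 on normal macrophage high, where this value was just under background, and 11.57 on tumor macrophage low, with the other 4 arrays from 10.47 to 10.59. The highest Smad3 level was thus on an array with 8 of 8 NK cell markers and 7 of 7 B cell markers above background, with median log2 values of 12.43 and 12.17. The part of those cells in the Smad3 level was not tested.

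Smad7 had log2 values of 10.64 on normal MG, 10.27 on tumor MG, 9.75 on normal MP, 10.40 on tumor MP, 9.96 on tumor brain Gr1+ and 10.65 on tumor brain Gr1-. In blood it was below background at 8.38 on normal macrophage high and 8.67 on normal macrophage low, and stood at 9.22 on tumor macrophage high, 9.88 on tumor macrophage low, 9.53 on Gr1+ and 10.31 on Gr1- cells. Brain arrays other than normal MP and Gr1+ were at or above 10.27, and among blood arrays the one labelled Gr1- reached that range. None of the 11 gaps between neighbouring arrays exceeded the olfactory receptor SD, so the order was graded and not stepped.

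The corepressors Ski, Skil and Tgif1, which restrain SMAD-driven transcription, were high on brain arrays and on both Gr1 arrays of blood. Ski lay from 10.81 to 11.39 on the log2 scale in brain, at 11.56 on blood Gr1+ and 11.47 on blood Gr1-, and from 8.73 to 9.89 on the 4 blood macrophage arrays. Skil lay from 10.49 to 11.37 in brain, at 11.33 and 10.87 on blood Gr1+ and Gr1-, and from 8.77 to 9.92 on the blood macrophage arrays. Tgif1 lay from 10.17 to 10.87 in brain, at 11.39 and 10.79 on blood Gr1+ and Gr1-, and from 9.49 to 10.11 on the blood macrophage arrays. For all 3 genes the blood macrophage arrays lay below every other array, by the narrowest margin for Tgif1, at 10.11 against 10.17 on normal MP. For each of the 3 genes, 2 of 11 neighbour gaps were beyond the olfactory receptor SD.

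In tumor against normal MG, which asks how MG of a glioma-bearing brain differ, 8 of 10 members were lower and 2 higher as deposited, and 6 or 7 lower under 3 rescalings of the arrays. None reached 2-fold (0 of 10), where 6.05% of all genes did, 2.44% higher and 3.61% lower. Of genes above background on 1 or both arrays, 9.72% did. With only 10 members, 0 is close to these shares. The members' median log2 difference was -0.29 and that of all genes -0.09. Beyond the olfactory receptor SD of 0.41 were Tgfbr1 at -0.89, or 1.85-fold lower, Tgfb1 at -0.75 and Smad3 at -0.61. At 1.5-fold, a wider difference than that SD, 18.5% of all genes were apart. Smad7 and Tgfbr2 were both at -0.37, Ski at -0.21, Skil at 0.07 and Tgif1 at 0.31, all within that SD. Il10 at -0.13 and Tgfb2 at -0.04 were differences below background, and the signs of both flipped under rescaling. In the same comparison 4 of 9 microglia markers were lower by 2-fold or more, with a median of -0.89, and 8 of 9 monocyte markers higher by as much, 5 of them above background. With values below background raised to it, 4 of 9 microglia markers were still lower by as much, and 2 of 9 monocyte markers higher, with a median of 0.48. Markers of brain cells also differed, with the oligodendrocyte genes Mbp at 12.60 on normal MG and 10.93 on tumor MG and Mobp at -2.13, among 5 oligodendrocyte markers with a median of -0.73 and 5 astrocyte markers with a median of -0.77. With values below background raised to it, these medians were -0.06 and -0.77, against -0.06 over all genes. The part of all these markers in the Tgfbr1 difference was not tested.

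In tumor against normal MP, 9 members were higher and 1 lower as deposited, with 8 or 9 higher under 3 rescalings. The higher members include Tgfb2 and Il10, below background on both arrays, and how many of all genes were higher was not counted. Again 0 reached 2-fold, where 5.23% of all genes did, 1.65% higher and 3.58% lower, and 8.32% of genes above background on 1 or both arrays. For so few members, 0 is close to these shares. The members' median log2 difference was 0.39 and that of all genes 0.12. Tgif1 at 0.68, Smad7 at 0.65, Tgfbr1 at 0.64, Skil at 0.52 and Il10 at 0.41 exceeded the olfactory receptor SD of 0.39, and Il10 lay below background on both arrays. Ski at 0.37, Tgfbr2 at 0.32, Smad3 at 0.17, Tgfb2 at 0.06, whose sign flipped under rescaling, and Tgfb1 at -0.14 did not. Neutrophil markers (10 of 10) and border macrophage markers (6 of 6) were lower in tumor MP by 2-fold or more, with medians of -3.89 and -3.33, and 4 of 9 microglia markers higher by as much. With values below background raised to it, 9 of 10 and 6 of 6 were lower (medians -2.53 and -2.31) and 4 of 9 microglia markers higher. Mbp had a log2 value of 12.70 in normal MP, against 11.10 in tumor MP. Of 5 oligodendrocyte markers, 2 were lower in tumor MP by 2-fold or more, and the list's median was -0.69. With the same floor that median was -0.18, against 0.16 over all genes. The part of all these markers in the members' differences was not tested.

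Over the 4 populations labelled in both normal and tumor-bearing mice (8 arrays), an added limma fit of tumor against normal with population as a block, chosen after the values were seen, passed 0 of 10 members and 0 of all genes at an adjusted p of 0.05. At an unadjusted p under 0.05 it passed 0 members and 4.07% of all genes. Tgfbr1 differed by 0.12 with a 95% interval from -0.88 to 1.12. Smad7 had the largest member difference, 0.58 with an interval from -0.16 to 1.33 and an adjusted p of 0.964. The blood pairs in this fit are those whose names were crossed by their markers. Within these pairs tumor against normal cannot be told apart from cell makeup. The differences, intervals and counts of this fit are therefore no measure of a tumor effect.

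In normal brain all 10 members were lower in MP than in MG as deposited, and 9 or 10 under 3 rescalings. This count includes Tgfb2 and Il10, which lay below background on both arrays. The share of all genes lower in MP was not counted. Their median log2 difference was -0.43, and that of all genes was -0.22 as deposited and -0.01 after cyclic loess normalization, under which the members' median was -0.50. Tgfbr1 was 2.69-fold lower in MP, at -1.43, and was the 1 member at least 2-fold apart, where 7.46% of all genes were apart, 3.11% lower and 4.35% higher. Smad7 at -0.89, Smad3 at -0.74, Tgfbr2 at -0.56, Skil at -0.44 and Ski at -0.42 also exceeded the olfactory receptor SD of 0.39. Tgfb1 at -0.37, Il10 at -0.35, Tgif1 at -0.31 and Tgfb2 at -0.22 did not. Microglia markers (9 of 9) were lower in normal MP by 2-fold or more, with a median of -1.76, and neutrophil markers (10 of 10), monocyte markers (8 of 9, median 3.33) and border macrophage markers (6 of 6, median 2.99) higher by as much. With values below background raised to it, 9 of 9 microglia markers were still lower. Higher were then 9 of 10 neutrophil, 5 of 9 monocyte and 5 of 6 border macrophage markers. Their part in the Tgfbr1 difference was not tested. This comparison shares normal MG and normal MP with the preceding ones, so its values are not independent of theirs.

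In tumor brain MP and MG were close. The members' log2 differences ran from -0.12 for Tgfb2 to 0.24 for Tgfb1, none beyond the olfactory receptor SD of 0.35. None reached 2-fold (0 of 10), close to the 0.341% of all genes that did. Of genes above background on 1 or both arrays, 0.0153% did. Tgfbr1 differed by 0.10, and Tgfbr2 and Smad7 by 0.13 each. The 2 arrays correlated at r = 0.975 over all genes. Their markers were also alike, with 0 of 9 microglia markers and 0 of 9 monocyte markers 2-fold apart (medians 0.11 and 0.19). Ptprc, which encodes the sorted antigen CD45, was at 11.89 on tumor MP and 11.86 on tumor MG. How far the cells of these 2 arrays differ in type was not tested. The Tgfbr1 difference between MP and MG was -1.43 in normal brain beside 0.10 in tumor brain. The difference of these differences was not tested, since each rests on 2 arrays.

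In tumor brain and in blood, the Gr1+ array carried less of both receptors than the Gr1- array. In tumor brain Tgfbr2 was 2.99-fold lower in Gr1+ cells, at -1.58 on the log2 scale, and Tgfbr1 was 2.88-fold lower, at -1.52. These were the 2 members at least 2-fold apart, where 7.99% of all genes were apart, 5.12% lower and 2.88% higher. Smad7 at -0.68, Tgfb1 at 0.57, Smad3 at -0.49 and Il10 at 0.40 also exceeded the olfactory receptor SD of 0.35, with Il10 below background on both arrays. Skil at 0.33, Tgif1 at 0.27, Tgfb2 at 0.17 and Ski at 0.07 did not. Ligand and receptors thus differed in opposite directions, with Tgfb1 higher and both receptors lower in Gr1+ cells. Microglia markers (9 of 9) were lower in tumor brain Gr1+ cells by 2-fold or more, with a median of -3.81, and monocyte markers (9 of 9) higher by as much, with a median of 3.19. Of 8 NK cell markers 7 were lower, 3 of them above background on the Gr1- array, with a median of -2.28. With values below background raised to it, 1 of 8 NK cell markers was lower by 2-fold or more (median 0.08). On that scale 8 of 9 microglia markers were lower and 9 of 9 monocyte markers higher. Their part in the receptor differences was not tested.

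In blood Tgfbr1 was 2.98-fold lower in Gr1+ cells, at -1.57, and Tgfbr2 2.47-fold lower, at -1.31, and these were again the 2 members at least 2-fold apart, where 7.51% of all genes were apart, 4.31% lower and 3.2% higher. Smad7 at -0.78, Tgif1 at 0.60 and Skil at 0.46 exceeded the olfactory receptor SD of 0.38. Tgfb2 at 0.34, Tgfb1 at 0.27, Il10 at -0.10 and Ski and Smad3 at 0.09 each did not, and the signs of Ski and Il10 flipped under rescaling. The blood Gr1- array is the one with microglia markers, and 9 of 9 were lower in blood Gr1+ cells by 2-fold or more, with a median of -2.80. Neutrophil markers (10 of 10, median 4.44) and monocyte markers (8 of 9, median 1.65) were higher by as much, and 5 of 7 B cell markers lower. With values below background raised to it, 8 of 10 neutrophil and 8 of 9 monocyte markers were higher. Lower were then 8 of 9 microglia and 3 of 7 B cell markers. Their part in the receptor differences was not tested.

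**Figure D3:**
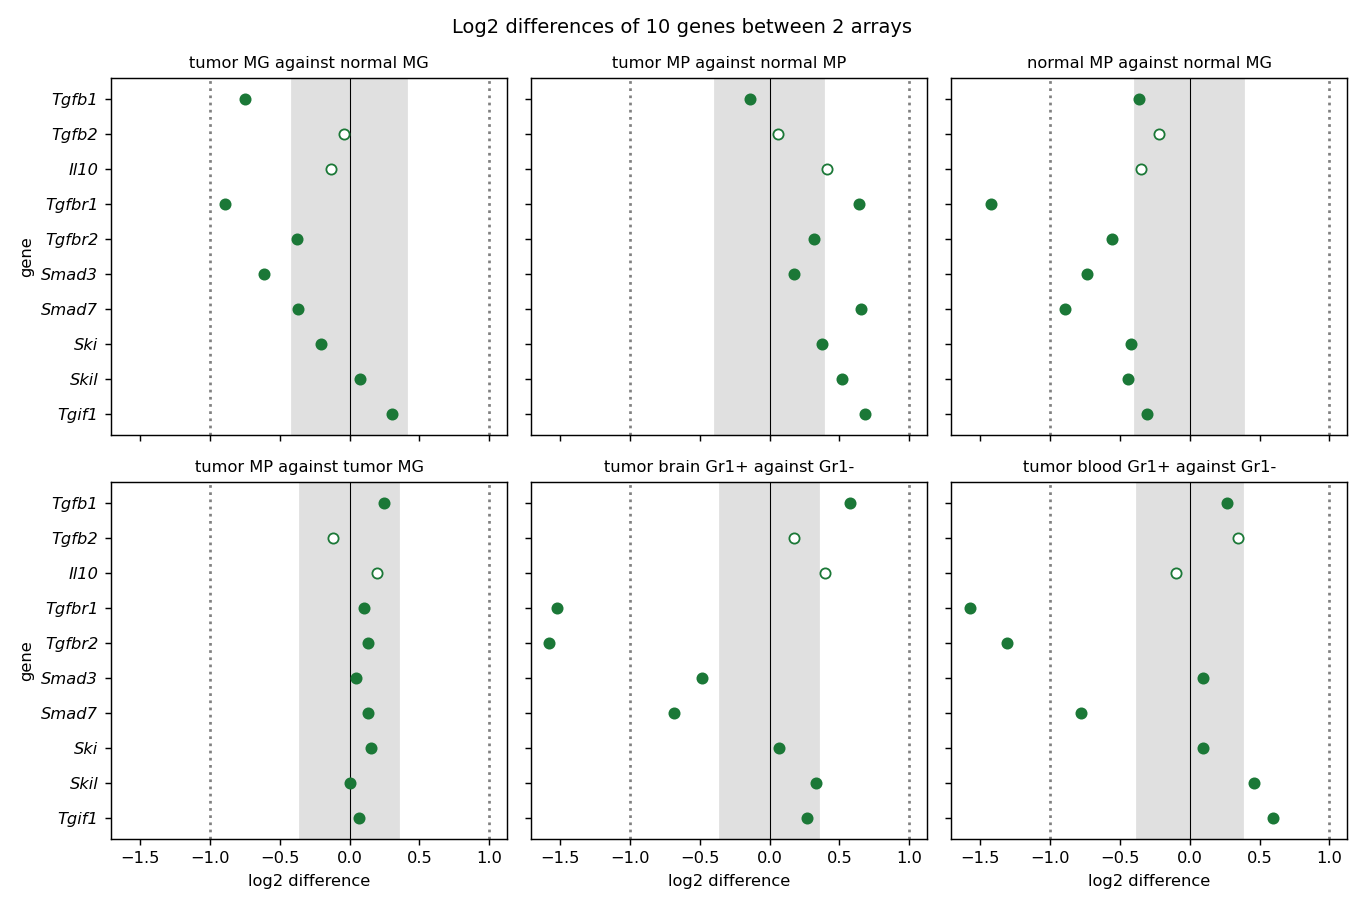
Log2 differences (x axis) of the 10 genes (y axis) in 6 comparisons of 2 arrays, with filled points above background on at least 1 array, open points below it on both, grey bands for ± the olfactory receptor SD and dotted lines at 2-fold. Tgfbr1 lay at -1.43 in normal MP against normal MG and both receptors lay beyond the lower dotted line in both Gr1 comparisons.

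Brain and blood arrays were compared as 6 against 6, although arrays of 1 tissue are different populations and their spread holds population differences. By limma with Benjamini-Hochberg adjustment over all genes, 0 of 10 members passed an adjusted p of 0.05, where 0.0351% of all genes passed, and 5 members had an unadjusted p under it, where 10.4% of all genes did. Over all genes 0 were higher in brain and 7 higher in blood by the adjusted test. The members' median log2 difference was 0.59, against -0.07 over all genes. Tgfbr1 had a mean log2 value of 11.97 ± 0.742 (SD, n = 6) in brain and 9.79 ± 1.54 (SD, n = 6) in blood. Its difference was 2.18 with a 95% interval from 0.94 to 3.42, an adjusted p of 0.208 by limma and p = 0.00649 by an exact two-sided permutation test. Smad7 differed by 0.94 with an adjusted p of 0.241 and an exact permutation p of 0.0195, and Skil by 0.94 with 0.316 and an exact permutation p of 0.0390.

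Of the other members, Ski differed by 0.93 with a limma adjusted p of 0.422 and an exact permutation p of 0.0671, and Tgfbr2 by 0.78 with 0.379 and an exact permutation p of 0.0541. Tgfb1 differed by 0.39, Tgif1 by 0.31, Tgfb2 by -0.11, Il10 by -0.18 and Smad3 by -0.33, with limma adjusted p from 0.786 to 0.904. In 0 of 10 members were the 6 brain arrays separate from the 6 blood arrays, against 0.366% of all genes. Without the array labelled tumor blood Gr1-, 2 members passed limma's adjusted threshold, namely Tgfbr1 at 2.60 with an adjusted p of 0.0168 and Smad7 at 1.14 with an adjusted p of 0.0395, where 2.92% of all genes passed. Without that array and normal blood macrophage high together, 1 passed, Tgfbr1 at 2.16, where 2.4% of all genes did. Leaving out 1 array at a time, the limma adjusted p of Tgfbr1 ran from 0.0168 to 0.433.

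The receptor levels were set against those of microglia markers, as a description over arrays that differ in cell makeup. For 9 markers the median log2 value was 12.91 for normal MG, 12.02 on tumor MG, 11.11 on normal MP, 12.10 on tumor MP, 8.26 on tumor brain Gr1+ and 12.46 on tumor brain Gr1-. With that median Tgfbr2 correlated at r = 0.890 over 12 arrays and 0.996 over the 6 brain arrays, and Tgfbr1 at 0.863 and 0.947. Smad7 gave 0.826 and 0.703, Ski 0.730 and 0.524, and Tgfb1 0.186 and -0.486. Smad3 gave -0.0785 over 12 arrays but 0.843 over the brain arrays. For Skil and Tgif1 the 12-array values of 0.603 and 0.424 turned to -0.440 and -0.271 over brain arrays.

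**Figure D4:**
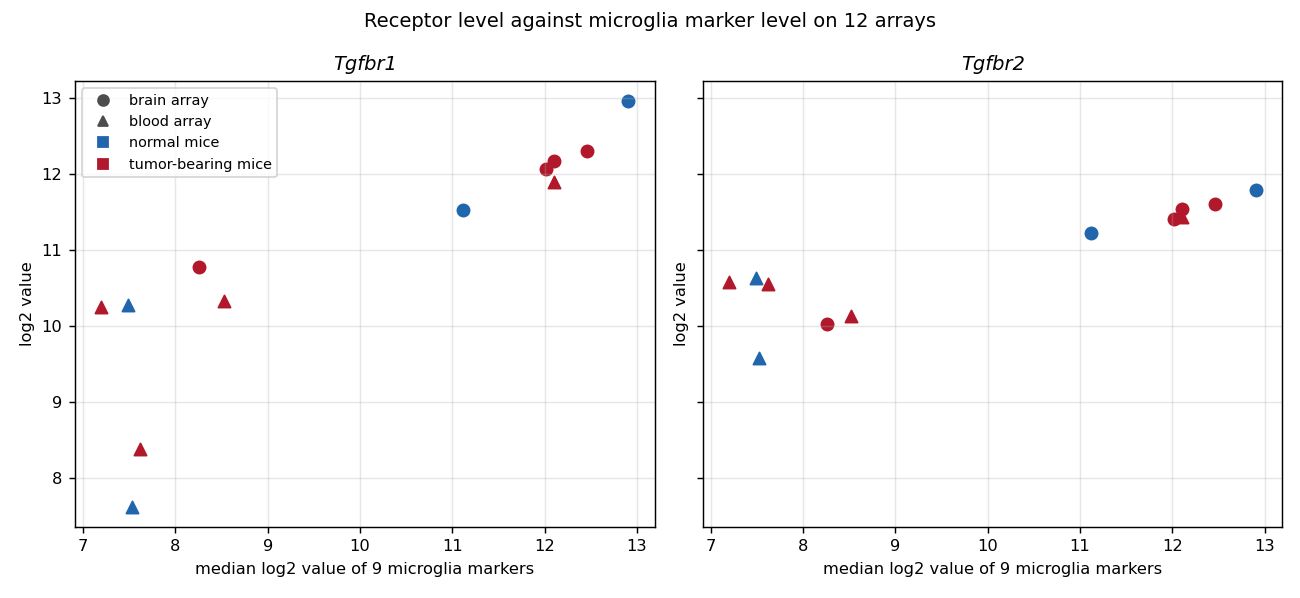
Log2 value of Tgfbr1 and Tgfbr2 (y axis) against the median log2 value of 9 microglia markers (x axis), 1 point per array, with circles for brain, triangles for blood, blue for normal and red for tumor-bearing mice. The red triangle at the upper right is the array labelled tumor blood Gr1-, with a marker median of 12.10.

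Over the 28 pairs of the 8 expressed members the median correlation across 12 arrays was 0.597, against 0.0101 over all pairs of genes above background on at least 3 arrays. Without normal blood macrophage high, the members' median was 0.276, with a lowest pair at -0.62, against -0.0164 over all pairs. Skil and Tgif1 correlated at 0.92 over 12 arrays and 0.87 over brain arrays, whereas Ski and Skil correlated at 0.92 and -0.12. The lowest pair over 12 arrays was Smad3 and Skil at -0.28. The 3 genes whose levels were most like Tgfbr1 across the 12 arrays were Lmo2 at r = 0.990, Slc7a7 at 0.988 and Hexa at 0.981. For Tgfbr2 they were Parvg at 0.973, Snx19 at 0.969 and Vkorc1 at 0.967, and for Smad7 Atp6v0a2 at 0.963, Ivns1abp at 0.963 and Abca1 at 0.952. For Smad3 they were Aak1 at 0.909, Lcor at 0.887 and Zbtb38 at 0.874. For Ski they were Dpysl2 at 0.964, Cltb at 0.960 and Zranb2 at 0.959, and for Tgfb1 Arf2 at 0.956, Ier3ip1 at 0.953 and Brk1 at 0.95. Skil had Lgals9 at 0.975, Pnp at 0.971 and Tcirg1 at 0.970, and Tgif1 had Lgals9 at 0.955, Mrps18b at 0.952 and Tcirg1 at 0.952.

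Among the genes that store or release latent TGF-β, Thbs1 and Mmp14 were higher in tumor MG and tumor MP than in their normal counterparts. Of 14 such genes, tumor MG had 2 higher and 1 lower by 2-fold or more, tumor MP likewise 2 and 1, tumor brain Gr1+ against Gr1- cells 3 and 1, and the blood Gr1 comparison 1 and 1. The shares of all genes at least 2-fold apart, given above for each comparison, are the measure for this list and those that follow. Thbs1, whose product thrombospondin-1 releases active TGF-β, was at 11.43 on tumor MG and 8.61 on normal MG, where it was below background, a log2 difference of 2.82 that became 2.00 with values below background raised to it. It was also higher by 1.72 in tumor MP, by 3.03 in tumor brain Gr1+ cells and by 3.13 in blood Gr1+ cells. Mmp14, a membrane protease that can free the ligand, was higher by 1.66 in tumor MG, 1.83 in tumor MP and 1.42 in tumor brain Gr1+ cells. Furin, which cleaves the TGF-β precursor, was higher by 1.02 in tumor brain Gr1+ cells. Ctsd, a lysosomal protease, was at -2.08 there and at -1.42 in blood. Itgb8, an integrin chain that activates the latent ligand, was the lower gene in both tumor comparisons, at -1.12 and -1.25, below background on both arrays each time. The list's median was -0.05 in tumor MG, 0.22 in tumor MP and 0.40 in tumor brain Gr1+ cells, against -0.09, 0.12 and 0.04 over all genes.

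Among 13 other ligands and receptors of the superfamily, few were apart. Eng, a coreceptor, was at -1.04 in tumor against normal MG and at -1.30 in normal MP against normal MG, where Acvrl1, a type 1 receptor, was at 1.23, or 0.55 with values below background raised to it. Bmpr1a, a type 1 receptor for bone morphogenetic proteins, was at -3.29 in tumor brain Gr1+ cells and at -1.63 in blood Gr1+ cells, which became -0.49 and -0.31 when values below background were raised to it. Acvr1, another type 1 receptor, was at -1.43 in blood Gr1+ cells, or -0.73 with that floor. Of 18 other SMADs and SMAD regulators, 3 were lower and 0 higher by 2-fold or more in tumor MG, namely Smad5 at -1.09, a SMAD of the bone morphogenetic protein branch, Smurf1 at -1.08, a ubiquitin ligase, and Zfyve9, below background on both arrays. With the same floor Smad5 was at -0.82 and 1 of the 18 was past 2-fold. In tumor MP Zfyve9, which presents SMADs to the receptor, was at -1.54, or -0.07 with that floor, and Wwp1, a ubiquitin ligase, at -1.24. Pmepa1, a feedback inhibitor induced by TGF-β, was at -1.36 in tumor brain Gr1+ cells and -1.39 in blood Gr1+ cells, the same direction as both receptors.

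Of 11 textbook TGF-β targets measured, tumor MG had 2 higher and 1 lower by 2-fold or more and tumor MP likewise 2 and 1. Against Gr1- cells, the tumor brain Gr1+ array had 3 and 3 and the blood Gr1+ array 5 and 1. With values below background raised to it, the counts were 2 and 0 in tumor MG and 1 and 0 in tumor MP. On that scale they were 2 and 1 on tumor brain Gr1+ and 3 and 0 on blood Gr1+. Tgfbi, a matrix protein named for its induction by TGF-β, was higher by 3.47 in tumor MG (2.74 with values below background raised to it), 1.07 in tumor MP, 3.40 in tumor brain Gr1+ and 1.53 in blood Gr1+ cells. Fn1, fibronectin and also one of the monocyte markers, was higher by 4.46 in tumor MG (2.76 with that floor), 3.38 in tumor brain Gr1+ and 1.07 in blood Gr1+ cells. Itgae at -2.29, Id2 at -1.20 and Cdkn2b at -1.09, respectively an integrin chain, an inhibitor of differentiation and a cell cycle inhibitor, were the lower targets in tumor brain Gr1+ cells, and with the same floor Itgae was at -0.71 and Cdkn2b at -0.34. Tgfbi and Fn1 were thus higher in Gr1+ cells, where both receptors were lower.

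The microglial genes known to depend on TGF-β, a list of 16 measured that includes Tgfbr1 and all 9 microglia markers, had a median of the same sign as the Tgfbr1 difference in the comparisons that follow. In tumor MG 5 were lower and 0 higher by 2-fold or more, with a median of -0.85, and the lower ones were Gpr34 at -2.39, Slc2a5 at -1.52, Fcrls and P2ry12 at -1.46 each and Siglech at -1.01. In tumor MP 4 were higher and 1 lower, with a median of 0.70, namely Sall1 at 1.59, a microglial transcription factor, Siglech at 1.08, Olfml3 at 1.07, Tmem119 at 1.04 and Gas6 at -1.15. Normal MP had 12 lower than normal MG did, and the median was -1.48. The Gr1+ arrays had 15 lower in tumor brain and 16 in blood, and the medians were -3.12 and -2.68. Only 8 of the 16 were above background on each Gr1+ array, and with values below background raised to it 13 and 14 were lower by 2-fold or more, with medians of -1.98 and -1.94. Gpr34 and Gas6 were then short of 2-fold in both tissues. Of all genes, without that floor, 3.61% were lower by 2-fold or more in tumor MG, 1.65% higher in tumor MP and 3.11% lower in normal MP. In Gr1+ cells 5.12% of all genes were lower by as much in tumor brain and 4.31% in blood. Brain against blood, 16 of 16 had an unadjusted limma p under 0.05, where 10.4% of all genes did, and 0 an adjusted one.

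Around Il10, which was itself below background, 12 receptor and response genes were measured. In tumor MG 5 were higher and 0 lower by 2-fold or more, with a median of 0.63, but Bcl3 and Nfil3 were below background on both arrays. With values below background raised to it, 1 gene was past 2-fold and the median was 0.12. Il1rn, the interleukin-1 receptor antagonist, was at 4.45 there and at 1.13 with that floor, and Socs3, a STAT3-induced inhibitor of cytokine signalling, was at 1.96 and 0.96. In tumor MP Il1rn was at 1.91 and Socs3 at 1.32. In Gr1+ cells 5 were higher and 0 lower in both tissues, among them Il1rn at 2.40 in tumor brain and 2.22 in blood and Bcl3, a modulator of NF-κB, at 1.71 in each tissue. Many cytokines other than IL-10 act through STAT3 on these genes. Of the receptor chains, named here after their values were seen, Il10ra lay between 11.20 and 12.06 on all arrays except normal blood macrophage high and tumor blood macrophage low.

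**Figure D5:**
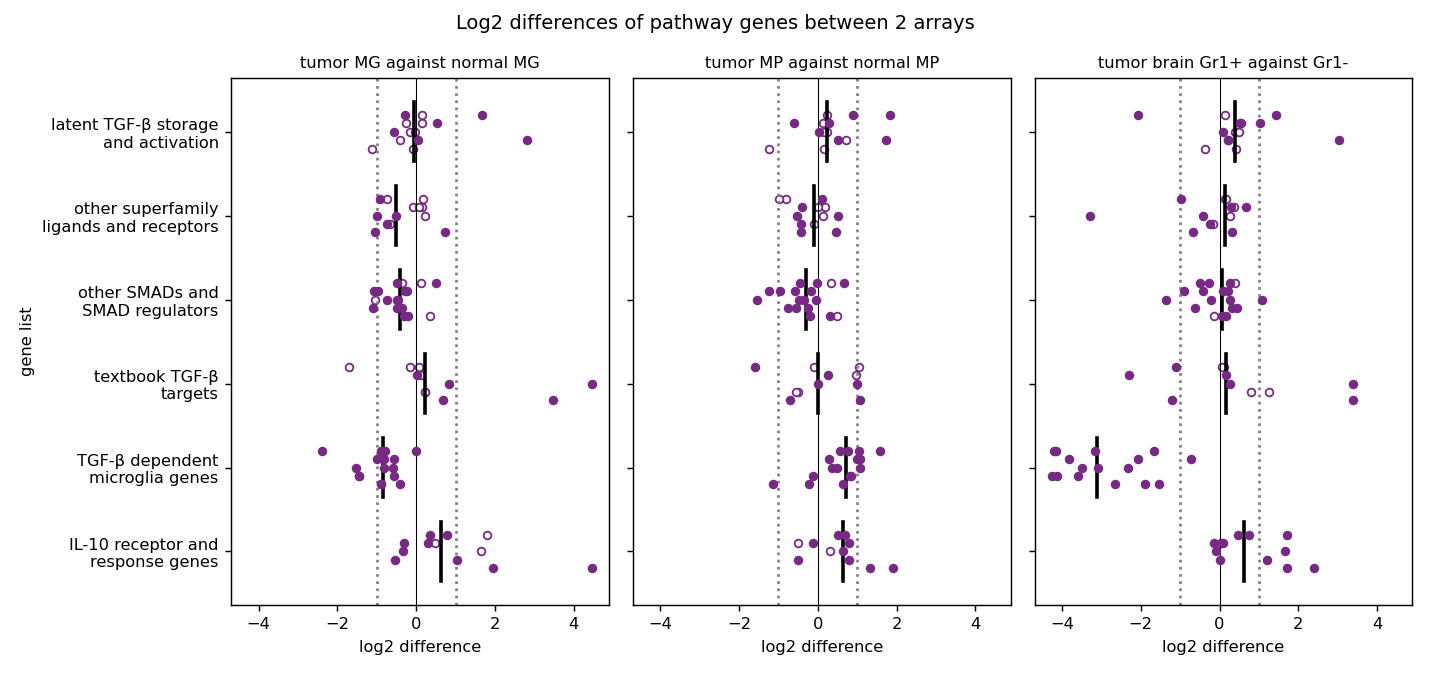
Log2 differences (x axis) of genes in 6 pathway lists (y axis) for tumor against normal MG, tumor against normal MP and tumor brain Gr1+ against Gr1- cells, with filled points above background on at least 1 array, open points below it on both and black bars for list medians. The TGF-β dependent microglia genes had medians of -0.85, 0.70 and -3.12.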

How the data were processed

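Log2 expression values deposited by the authors were used as given. Per the methods, RNA of each sorted population was amplified in 2 cycles with rRNA reduction, hybridized to Affymetrix Mouse Gene ST arrays, and background-corrected, normalized and summarized by the authors in Expression Console. The submitters' processing notes name RMA. Its settings, the genome build and any scan batch are not given in the sources used here. The upper quartile of log2 values lay between 9.40 and 9.73 over the 12 arrays, and values were not rescaled.

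Of 28944 probe sets, 21789 carried 1 gene symbol in the platform annotation, 1621 several and 5534 none. Only those with 1 symbol were used. Where a gene had more than 1 probe set (999 genes), the one with the highest mean over the 12 arrays was kept, leaving 19938 genes. Groups were taken from the sample titles. Each of 6 comparisons is a log2 difference of 2 single arrays, with genes at least 2-fold apart counted. The methods of the study name adjusted p-values, which single arrays cannot give. Brain and blood were compared with limma 3.58.1 (lmFit, eBayes, Benjamini-Hochberg adjustment over all genes) in R 4.3.3, with exact permutation tests per member. The computation was tested on simulated data. Python 3.11.15, numpy 2.4.6, pandas 2.3.3 and scipy 1.17.1 were used.

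The members and all gene lists were chosen with earlier results of these data known. Named were all 10 members, the 3 genes with the most similar pattern to each member above background on at least 3 arrays, and up to 4 genes each way of each pathway list that were at least 2-fold apart with the brighter array above background. Genes outside this rule are Itgb8, Il10ra, Itgam, Ptprc, Ly6g, Slc1a2, Mbp and Mobp. In tumor MG they are also Siglech, Zfyve9, Bcl3 and Nfil3. All were chosen after their values were seen. Alternatives were 3 rescalings, a floor at background, another background percentile, another fold threshold and leaving out arrays. Promoter letters come from RefSeq on GRCm38.p6. The small number of arrays limits the precision.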

Additional observations from a re-analysis of the deposited data

Results flagged for a closer look

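Among 20 sets of 6 arrays examined, 1 set per member and tissue, 2 held an array far from the rest by Dixon's criterion. For replicates of 1 population, chance alone gives about 1 in 20 such sets. These arrays are different populations and the members' levels were correlated, so that rate does not apply here. Tgfbr2 on tumor brain Gr1+ was at 10.02 on the log2 scale, 1.21 below the nearest brain array, a gap that made up 0.683 of the range. On that array the microglia marker median was 8.26, the lowest of the brain arrays. Smad3 on tumor blood macrophage low was at 11.57, 0.98 above the nearest blood array, or 0.663 of the range, on an array with 8 of 8 NK cell markers and 7 of 7 B cell markers above background, with median log2 values of 12.43 and 12.17.

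Tgfbr1 differed in opposite directions in the 2 comparisons of tumor with normal brain. It was at -0.89 in MG and at 0.64 in MP on the log2 scale, both beyond the olfactory receptor SD of the arrays compared. This difference between MG and MP was not tested, since each value rests on 1 array a side. Tumor MP and tumor MG were alike in Tgfbr1 (0.10) and in microglia markers (median 0.11). Normal MP was lower than normal MG in both (-1.43 and -1.76).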

How the results depend on the processing

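Within each of the 6 comparisons no paired analysis was possible, because their arrays share fewer than 2 replicate numbers, each population having 1 array. Pairing by population was possible only in the blocked fit over the 4 populations labelled in both normal and tumor-bearing mice. Every member kept its side of the 2-fold threshold in the 6 comparisons under the 3 rescalings (median centring, quantile and cyclic loess normalization) and the floor at background. With a 1.5-fold threshold, 3 members were apart in tumor against normal MG (0 higher, 3 lower; 18.5% of all genes), 3 in tumor against normal MP (all higher; 17.2%), 3 in normal MP against normal MG (all lower; 23.9%), 3 in the tumor brain Gr1 comparison (all lower; 19.1%) and 4 in the blood Gr1 comparison (1 higher, 3 lower; 20.4%). Rescaling flipped the sign of Tgfb2 in both tumor against normal comparisons and in normal MP against normal MG, of Il10 in tumor against normal MG, of Smad3, Skil and Tgif1 in tumor MP against tumor MG and of Ski and Il10 in the blood Gr1 comparison. In brain against blood the members called by limma numbered 0, but 4 with values below background raised to it (Tgfbr1 at 1.62, Tgfbr2 at 0.70, Ski at 0.71, Skil at 0.72), where 2.81% of all genes passed, the cause of which was not tested. Leaving out 1 array at a time gave 0 to 2, the 2 arising without tumor blood Gr1- (2.92% of all genes), and leaving out that array with normal blood macrophage high, an alternative chosen after seeing the data, gave 1 (2.4% of all genes). The Tgfb2 difference, -0.11 as deposited, reversed to 0.012 over the 8 tumor arrays and to 0.018 without normal blood macrophage high (-0.19 to 0.018 with 1 array left out at a time), and the cause was not tested. Of the other single-gene values in this comparison 199 kept direction and side of the threshold. Signal near background limits Tgfb2, Il10 and all members but Tgfb1 on normal blood macrophage high.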
